A study of Homo sapiens with 2 samples.

Results

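The subject is the set of open chromatin peaks that the T cell leukemia line J76 had at the ends of protein-coding genes and that the kidney line did not have. A J76 peak was taken if it shared no base with any peak of the kidney line and if its summit lay within 1 kb of either end of a protein-coding gene. Of the 58730 J76 peaks on chromosomes 1 to 22 and X, 28034 overlapped no peak of the kidney line, and 1356 of these (4.84%) met the rule. They lay at 1333 of 19974 protein-coding genes. Both libraries together held 145228 peaks. The members were thus chosen by presence in 1 list and absence from the other, and that contrast is not a result.

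The study prepared ATAC-seq libraries, in which the transposase Tn5 inserts sequencing adapters into accessible DNA, with an enzyme purified by the submitters. J76 is labelled as human acute T-lymphoblastic leukemia and is known as a derivative of the Jurkat line. The other line, of embryonic kidney origin, is T293 in the sample labels and 293T in the protocol, and is written 293T here. Both were untreated, growing in log phase, and used at 50000 cells per reaction, with 1 library each, so no difference between the lines could be checked against replicates and none was tested. The read depth is not known from the peak lists, so a site without a 293T peak is one where no peak was called, not one shown to be closed. Of 13 T cell markers, 9 had a J76-only peak at a gene end (CD3D, CD3E, CD3G, CD247, CD2, CD7, CD28, ZAP70 and LAT), while CD5, LCK and TCF7 had no J76-only, 293T-only or shared J76 peak there and BCL11B had none in J76 alone. None of 4 B cell markers, none of 4 myeloid markers, 1 of 4 erythroid markers (KLF1) and 1 of 8 kidney and epithelial markers (PAX2) had one, while 5 of those 8 (WT1, LHX1, KRT8, KRT18 and EPCAM) had a 293T-only peak. The KLF1 and PAX2 summits lay not at the start but 941 and 972 bases before the end of the gene.

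The start of a gene is where RNA polymerase is loaded, and the chromatin there is usually open in cells that use the gene. Many housekeeping genes have starts rich in CpG dinucleotides (CpG islands), which tend to be open in most cell types, whereas many genes used by a single lineage have starts poor in CpG. In T cells, the T cell receptor passes its signal through the CD3 chains to kinases, adaptors and actin regulators, and transcription factors of the RUNX, ETS, Ikaros and E protein families act at the genes of the lineage.

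Promoter sequences are shown for 8 members, since base composition and the letters of a RUNX site are measures that the rule did not use. The sequences are from RefSeq, build GRCh38.p14, and are read in the direction of the gene. They run over the 250 bases that end just before the start given by the RefSeq promoter window. For PTPN22, CD28 and RUNX3 this start lies inside the outer gene end from which summit distances are counted. The first 6 belong to T cell and leukocyte genes and were picked for display after the motif counts were seen. They are PTPN22 (chr1:113871713-113871962 on the minus strand), ARHGAP15 (chr2:143129169-143129418 on the plus strand), CD28 (chr2:203706389-203706638 on the plus strand), RUNX3 (chr1:24965011-24965260 on the minus strand), CD3D (chr11:118342706-118342955 on the minus strand) and IL7R (chr5:35856641-35856890 on the plus strand). Capitals mark TGTGGTT, the letters searched as a RUNX site, or the same letters on the other strand, AACCACA.
PTPN22: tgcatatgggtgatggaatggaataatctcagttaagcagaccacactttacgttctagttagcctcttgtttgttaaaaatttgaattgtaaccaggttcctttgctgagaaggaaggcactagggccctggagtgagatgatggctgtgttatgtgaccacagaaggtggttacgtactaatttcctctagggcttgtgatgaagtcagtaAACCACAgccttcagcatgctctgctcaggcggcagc
ARHGAP15: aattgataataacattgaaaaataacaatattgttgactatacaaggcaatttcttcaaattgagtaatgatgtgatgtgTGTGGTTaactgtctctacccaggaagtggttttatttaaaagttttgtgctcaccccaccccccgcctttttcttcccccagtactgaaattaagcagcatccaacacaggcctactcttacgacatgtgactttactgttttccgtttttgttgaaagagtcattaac
CD28: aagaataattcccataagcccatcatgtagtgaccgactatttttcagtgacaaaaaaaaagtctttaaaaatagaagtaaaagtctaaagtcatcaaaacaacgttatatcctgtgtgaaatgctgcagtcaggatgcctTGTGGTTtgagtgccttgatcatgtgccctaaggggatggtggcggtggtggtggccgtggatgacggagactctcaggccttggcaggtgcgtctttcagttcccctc
RUNX3: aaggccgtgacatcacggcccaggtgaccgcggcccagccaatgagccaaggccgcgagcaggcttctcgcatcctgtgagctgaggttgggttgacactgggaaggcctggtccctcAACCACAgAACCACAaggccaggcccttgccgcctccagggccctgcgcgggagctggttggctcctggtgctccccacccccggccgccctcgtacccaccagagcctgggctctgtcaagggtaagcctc
CD3D: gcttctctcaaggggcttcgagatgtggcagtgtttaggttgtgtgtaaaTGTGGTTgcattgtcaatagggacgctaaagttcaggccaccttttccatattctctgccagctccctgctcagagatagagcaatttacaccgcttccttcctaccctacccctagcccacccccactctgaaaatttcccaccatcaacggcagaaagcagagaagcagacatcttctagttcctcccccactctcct
IL7R: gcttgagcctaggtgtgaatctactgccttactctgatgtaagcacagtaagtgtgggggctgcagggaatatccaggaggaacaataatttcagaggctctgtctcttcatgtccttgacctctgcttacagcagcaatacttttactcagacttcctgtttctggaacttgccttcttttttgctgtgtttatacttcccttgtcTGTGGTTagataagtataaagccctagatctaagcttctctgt
Distances of matches are counted from the start of the promoter window. The match lay 37 bases before this start in PTPN22, 170 in ARHGAP15 and 109 in CD28. It lay 200 bases before it in CD3D and 43 in IL7R. RUNX3, itself a RUNX factor gene, had a pair of matches, 132 and 124 bases before this start. Relative to the outer gene end, the PTPN22 and CD28 matches lie inside the gene and the RUNX3 pair lies across that end. A match is a description of the letters and not a shown binding site.

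The other kind of promoter among the members is rich in CpG. It is shown for PSMA8 (chr18:26133619-26133868 on the plus strand), a proteasome subunit gene of the testis, and OXCT1 (chr5:41870426-41870675 on the minus strand), which encodes an enzyme that uses ketone bodies. Here capitals mark each CG.
PSMA8: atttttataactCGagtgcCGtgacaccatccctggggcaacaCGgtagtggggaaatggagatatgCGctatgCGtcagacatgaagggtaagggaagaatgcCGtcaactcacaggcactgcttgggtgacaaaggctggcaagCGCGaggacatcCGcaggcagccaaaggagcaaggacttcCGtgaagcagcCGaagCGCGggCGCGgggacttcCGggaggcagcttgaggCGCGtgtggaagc
OXCT1: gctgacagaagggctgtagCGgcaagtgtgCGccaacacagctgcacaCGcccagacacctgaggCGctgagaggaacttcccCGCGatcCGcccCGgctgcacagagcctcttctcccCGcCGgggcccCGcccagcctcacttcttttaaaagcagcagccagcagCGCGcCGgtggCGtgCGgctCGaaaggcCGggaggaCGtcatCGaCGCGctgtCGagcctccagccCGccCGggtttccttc
PSMA8 has 18 CpG in these bases and OXCT1 has 25. The whole promoter window of 300 bases also takes in the 50 from its start onward. In it the numbers are 25 for PSMA8 and 34 for OXCT1. They are 4 each for PTPN22 and ARHGAP15, 9 for CD28, 15 for RUNX3, 5 for CD3D and 0 for IL7R.

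The J76-only peaks at gene ends were mostly small. Their fold enrichment, the authors' ratio of signal over background at the summit, had a median of 3.83 (interquartile range 3.14 to 5.31, range 1.85 to 12.8). The J76-only peaks away from gene ends had a median of 3.95, and the J76 peaks at gene ends that were shared with 293T had a median of 8.40. In width, the members had a median of 337.5 bp, against 302 bp for J76-only peaks away from gene ends and 1038 bp for shared peaks at gene ends. Gene-end peaks found in J76 alone were thus weaker and narrower than those found in both lines. A fold of at least 8 was reached by 92 members (6.78%), against 6021 shared peaks at gene ends (55.8%). A width of at least 1 kb was reached by 102 members (7.52%), against 5796 shared ones (53.7%). As overlap with a 293T peak helped to choose the members and wide peaks overlap more easily, these values are a description.

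**Figure D1:**
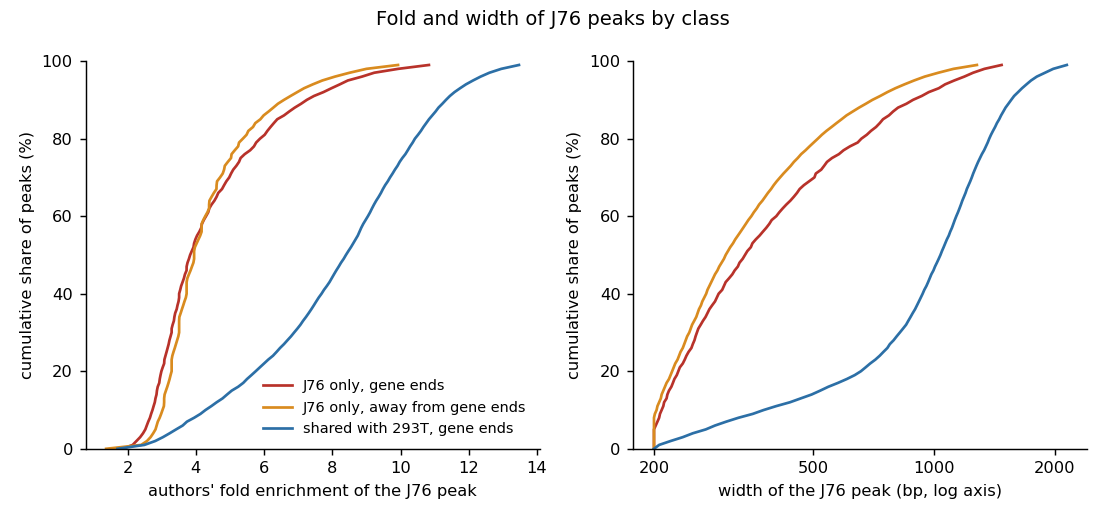
Cumulative share of J76 peaks (y, percent) by the authors' fold enrichment (left) and by width in bp on a log axis (right), for J76-only peaks at gene ends (red), J76-only peaks away from gene ends (orange) and J76 peaks at gene ends shared with 293T (blue), drawn up to the 99th percentile. The red and orange curves run close together, with median folds of 3.83 and 3.95, and the blue curve lies to the right, with a median of 8.40.

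Some members lay close to a 293T peak without touching it. The gap to the nearest 293T peak had a median of 6529.5 bp and ran from 6 bp to 703681 bp, and for 302 members (22.3%) it was under 1 kb. At the near limit, the peaks at ASCL4 (fold 5.42) and DEF6 (fold 2.55) were 6 bp from a 293T peak, while those at BBLN (fold 3.07) and RBM43 (fold 3.03) overlapped one by 1 and 5 bp and were not members. At the limit of distance, summits at KCNT2 and NUTM2D lay 999 and 998 bp from a gene end and were members, and those at CKLF and GPR63 lay 1001 bp away and were not. The authors' −log10 q had a median of 8.21 in the members, and 376 of them (27.7%) were under 5, against 2.77% of the shared peaks at gene ends.

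Most members with a known direction lay at the start of a gene. The strand was known from the promoter table for 15812 of the 19974 genes, which covered 1058 of the 1356 members. Of these, 717 had a summit within 1 kb of a start (67.8%, 95% Wilson interval 64.9 to 70.5) and 341 lay at an end only. The share was 95.3% for shared J76 peaks at gene ends and 74.8% for the 293T-only peaks at gene ends. These intervals cover counting error only. Gene starts with a J76-only peak numbered 691 of the 15812 with a strand (4.37%).

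Within the start windows the members were also spread more widely. The distance of the summit from the start had a median of 252 bp in the members and 79 bp in the shared peaks. The stretch from 250 bases before to 50 after the start held 41.3% of the member summits (37.7 to 44.9), against 71.9% of the shared ones, and likewise 41.3% of the 293T-only ones. The strongest members were at starts more often than the others: 64 of 74 with a fold of at least 8 (86.5%), against 94 of 132 with a fold of 6 to 8 (71.2%), 62.3% at 4 to 6, 63.3% at 3 to 4 and 73.8% below 3.

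**Figure D2:**
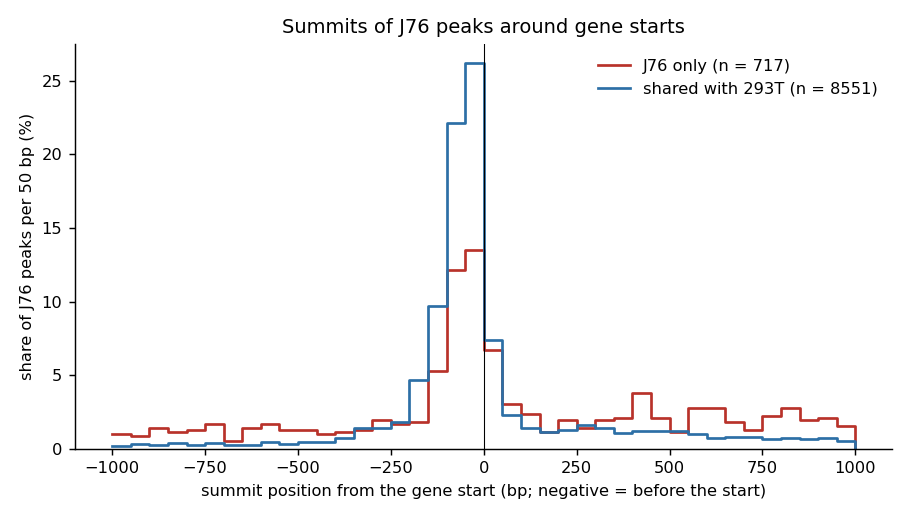
Summit position from the gene start (x, bp, negative before the start) against the share of J76 peaks in each 50 bp (y, percent), for the 717 J76-only peaks (red) and the 8551 peaks shared with 293T (blue) within 1 kb of a start. Both curves are highest just before the start, and the red one has longer flanks, with a median distance of 252 bp against 79 bp.

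A J76-only peak did not always mean a gene end without 293T signal, since another peak could lie at the same gene. Of the 1333 genes, 492 (36.9%) also had a J76 peak shared with 293T at an end, against 58.1% of all protein-coding genes. A 293T summit lay at an end of 580 of them (43.5%; all genes 67.2%), and 628 (47.1%) had at least a base of a 293T peak within 1 kb of an end. The other 705 genes, 3.53% of all, had no 293T peak there at all. A 293T-only peak was also present at 131 (9.83%), against 14.6% of all genes. One member peak was found at 1214 genes, 2 at 110 and 3 at 9. Another gene's end lay within 2 kb of 478 member genes (35.9%; all genes 36.4%), so the peak cannot be given to a single gene there.

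Genes of T cell receptor signalling had the highest share of members of any list except the small GIMAP family. A J76-only peak lay at an end of 15 of 22 (68.2%), against 6.67% of all protein-coding genes, and 12 of the 15 had no 293T peak within 1 kb of either end. Of the same 22 genes, 2 had a 293T-only peak, against 14.6% of all genes. The 7 lists of T cell and leukocyte genes together had 71 of 152 genes with a J76-only peak (46.7%, 39.0 to 54.6) and 10 with a 293T-only peak (6.58%). Without any 293T peak within 1 kb of the ends there were 55 of 152 (36.2%), against 3.53% of all genes. The lists were drawn up with earlier results of these data known, so their direction is not independent evidence.

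Among the receptor chains, CD3E had a pair of member peaks, with folds of 9.09 and 5.88. CD3G had a fold of 4.90, and CD3D had 3.75 at a summit 181 bases before its start and 2.02 at one 497 bases after it. CD247, the zeta chain gene, had a fold of 6.08 at a peak 1338 bp wide, with a summit 72 bases before the start. CD3E and CD3G had no 293T peak at either end, whereas CD3D and CD247 had one elsewhere at their ends, with folds of 3.55 and 2.83 in the 293T list. The CD3D peak in 293T was shared with a J76 peak of fold 3.75.

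Kinases and adaptors followed. TXK, a Tec family kinase, had a fold of 3.04. ZAP70, the kinase that binds the phosphorylated zeta chain, had folds of 4.87 at 9 bases from the start and 2.71 further upstream. The adaptor LAT had 5.08 and LCP2 (SLP-76) had 4.15 and 3.57. SH2D2A, a T cell adaptor gene with the highest fold of the list, had 9.80, THEMIS, needed for thymocyte selection, had 6.10, and the exchange factor VAV1 had 5.50. All of these except LCP2 lacked a 293T peak at their ends. Regulators were present as well. PTPN22, a phosphatase that restrains signalling, had a fold of 9.54 with its summit 1 base from the start, and UBASH3A, also a restraint, had 5.36 and 3.40.

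T cell surface molecules had 10 of 24 genes in the set (41.7%), with 1 gene holding a 293T-only peak. CD2, an adhesion receptor, had a fold of 8.29 at a summit 622 bases from its end, and CD28, the main costimulatory receptor, had 7.99 at 105 bases past its start. CD1A, a lipid-presenting molecule of immature thymocytes, had 5.66, CD52 had 4.59 and the inhibitory receptor PDCD1 had 4.24. CD27 had a fold of 3.49 beside a stronger shared J76 peak of 5.03 and a 293T peak of 4.04 in the 293T list, so its gene end was not bare in 293T.

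Cytokine and chemokine receptors had 10 of 29 (34.5%), with 2 holding a 293T-only peak. IL2RG, the common gamma chain of several interleukin receptors, had a fold of 7.91 at 64 bases before the start. IL9R had 5.78, CCR8 had 4.61 and IL7R, the receptor chain of an interleukin that T cell precursors need, had 3.97. IL10RA had 4.55, but its peak was 394 bp from a 293T peak, and the 293T list had a fold of 13.0 at its ends.

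T lineage and leukemia factors had 8 of 23 (34.8%), with 2 holding a 293T-only peak. IKZF3, an Ikaros family factor, had a fold of 8.40 and RUNX3 had 6.28. RUNX1 had 3.87 at a peak 1276 bp wide and 2.67 at its other end. Among genes known as T cell leukemia oncogenes, LMO1 had 4.86, LYL1 had 4.32, TAL1 had 3.48 at a peak 1246 bp wide, and LMO2 had 2.64 beside a shared J76 peak of 6.10.

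Leukocyte actin and adhesion genes had 16 of 27 (59.3%), with 1 holding a 293T-only peak. ARHGAP15, which switches off Rac, had a fold of 8.99, NCKAP1L, a subunit of the leukocyte WAVE complex, had 8.89, and DOCK2, a Rac exchange factor of leukocytes, had 8.87. TRAF3IP3 had 8.39, ARHGDIB 6.24, SPN (CD43) 5.39, the integrin chain gene ITGAL 5.22 and RAC2 4.85. Not all of these gene ends were free of 293T signal, since only 9 of the 16 had no 293T peak within 1 kb. LCP1, an actin bundling protein, had a fold of 6.47 next to a shared J76 peak of 5.65 and a 293T fold of 9.39.

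GIMAP GTPases, a family of lymphoid survival proteins, had 6 of 7 genes in the set, each with its peak at the start and with no 293T peak within 1 kb. GIMAP7 had a fold of 5.56, GIMAP1 5.09, GIMAP5 5.03 and GIMAP6 4.95. Cytotoxic and natural killer genes had 6 of 20 (30.0%), with 2 holding a 293T-only peak. GNLY (granulysin) had a fold of 7.01 at its end, CST7 5.43, PRF1 (perforin) 5.11 and GZMA (granzyme A) 4.40.

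**Figure D3:**
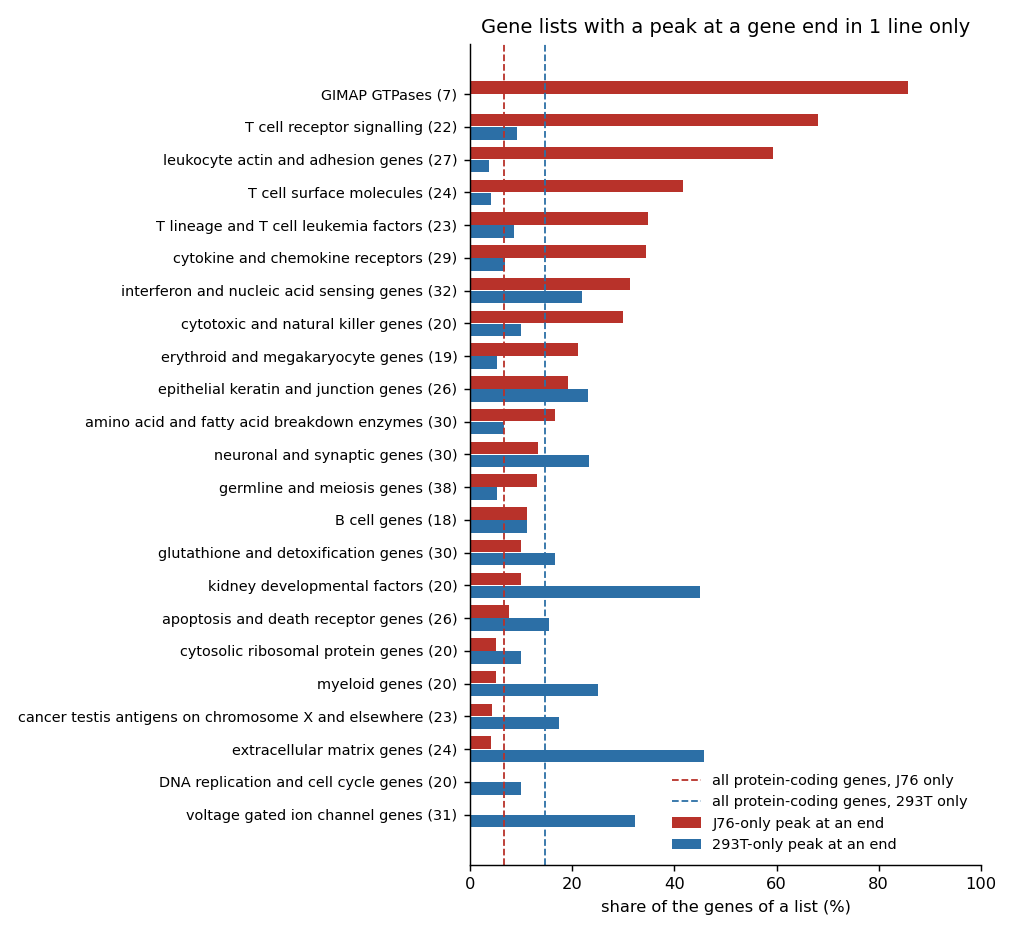
Share of the genes of each list (x, percent) with a J76-only peak (red) and with a 293T-only peak (blue) at a gene end; the number of genes stands beside each name and the dashed lines give the share of all protein-coding genes, 6.67% for J76 and 14.6% for 293T. The 7 T cell and leukocyte lists have red bars from 30.0% to 85.7%, and the matrix and kidney lists have the longest blue bars.

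Outside the T cell lists, interferon and nucleic acid sensing genes were the next, with 10 of 32 (31.2%) in J76 only and 7 in 293T only. MX2, an antiviral GTPase gene, had a fold of 8.43, GBP5 6.87, TLR9 6.67 and IRF7 5.45. Only 5 of the 10 were without a 293T peak within 1 kb, and TLR9 also had a shared J76 peak of 7.08 with a 293T fold of 6.33. Erythroid and megakaryocyte genes had 4 of 19 (21.1%): KLF1 with 6.57 near its end, HBA1 with 4.35, EPOR with 3.37 and HBA2 with 3.34. HBA1 and HBA2 are nearly identical copies, so reads may not be told apart between them.

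Germline and meiosis genes had 5 of 38 (13.2%), all at gene starts and all with no 293T peak within 1 kb. PSMA8 had a fold of 11.8 and HENMT1, which methylates piRNAs, had 9.29. BOLL had 4.39, SPO11, which makes the meiotic DNA breaks, had 3.57 and DAZL had 3.07. Amino acid and fatty acid breakdown enzymes had 5 of 30 (16.7%), led by MCCC1 of leucine breakdown with 11.8, while BCAT1, CPT1A, HADHA and HADHB had folds of 2.78, 2.56, 2.34 and 2.34. HADHA and HADHB share a single weak peak near their starts, 186 bp from a 293T peak.

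Other lists had fewer members, at shares on both sides of the 6.67% of all genes. B cell genes had 2 of 18 (11.1%; BANK1 with 5.05 and IGLL1 with 3.78) and myeloid genes 1 of 20 (5.00%; CD33 with 3.07, beside 5 with a 293T-only peak). Extracellular matrix genes had 1 of 24 (4.17%), against 11 with a 293T-only peak, and the 1, COL1A2 with 4.58, also had a 293T fold of 6.27. Kidney developmental factors had 2 of 20 (10%), GATA2 with 4.59 and PAX2 with 3.80 near its end, against 9 with a 293T-only peak. Epithelial keratin and junction genes had 5 of 26 (19.2%; ESRP1 with 7.35, CLDN3 with 5.78, then CLDN1, CLDN7 and KRT17), against 6 with a 293T-only peak, and neuronal and synaptic genes 4 of 30 (13.3%; among them NPY with 8.16, INA with 6.62 and GRIN2B with 3.73). Glutathione and detoxification genes had 3 of 30 (10%), apoptosis and death receptor genes 2 of 26 (7.69%), cancer testis antigens 1 of 23 (4.35%) and cytosolic ribosomal protein genes 1 of 20 (5.00%). None of 31 voltage gated ion channel genes and none of 20 DNA replication and cell cycle genes had a J76-only peak at an end, while 10 and 2 of them had a 293T-only peak.

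By gene family, 336 of the 1333 genes were in a list or a named family and 997 were in none. Zinc finger genes (ZNF, ZFP, ZSCAN, ZKSCAN, ZBTB), most of them DNA-binding repressors of repeats and genes, had 39 of 608 (6.41%), which is close to the 6.67% of all genes. In strength they were above the whole set of member genes, as were the 7 T cell and leukocyte lists together. The median of the highest folds was 5.85 in zinc finger members and 4.85 in the 7 lists, against 3.94 over all 1333 member genes. By list it ran from 3.99 in cytokine and chemokine receptors to 5.36 in T cell receptor signalling. A peak with a fold of at least 8 was found at 14 of 608 zinc finger genes (2.30%), against 0.526% of all genes. That share was 9 of 152 (5.92%) in the 7 lists together. It was 3 of 22 (13.6%) in T cell receptor signalling and 4 of 27 (14.8%) in leukocyte actin and adhesion genes. T cell surface molecules and T lineage factors had 1 such gene each, and the cytokine receptor, GIMAP and cytotoxic lists had none. The 14 zinc finger genes were ZNF737 with 12.4, ZNF43 with 12.2, ZNF491 with 11.02, ZNF510 and ZNF671 with 10.2, ZNF682 with 10.1, and ZNF347, ZNF141, ZNF556, ZNF700, ZFP82, ZNF525, ZNF878 and ZNF20 between 9.78 and 8.35. Each of these had its strongest summit at the start and no 293T peak at either end.

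Some immune families and the histones lay above the background, whereas immunoglobulin like receptors (3 of 49, 6.12%) and C type and killer lectins (2 of 44, 4.55%) did not. The 3 include KIR2DS1, matched to a summit at 282453 of chromosome 19. That placement of the gene was not checked, so its membership is uncertain. Core and linker histones had 13 of 91 (14.3%), against 4 with a 293T-only peak; H4C9 and H4C13 had folds of 5.78, H3-7 5.77 and H3C8 5.52. The histone genes are small and lie side by side, so a single peak often served more than 1: a peak of fold 4.40 covered H2AC14 and H2BC14. Chemokines and their receptors had 10 of 64 (15.6%), TNF superfamily members and receptors 8 of 33 (24.2%) and genes named CD 20 of 91 (21.98%). In the TNF group TNFRSF10A had 6.30, TNFRSF8 4.87 and TNFRSF14 4.43. A 293T-only peak lay at 6 (9.38%), 6 (18.2%) and 13 (14.3%) of these genes, against 14.6% of all genes. The TNF group was thus above the background in J76. Its 293T share rests on 6 of 33 genes and lay near that of all genes, so no difference is read from it. Of 21 HLA genes, 3 were present, all of class II: HLA-DPB1 had 6.80, HLA-DRB1 4.39 and HLA-DOA 4.17, and none of them had a 293T peak at its ends.

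Other large families were below or near the background. Olfactory receptors had 12 of 392 (3.06%), solute carriers 23 of 398 (5.78%), RAB GTPases 2 of 74 (2.70%), TRIM genes 1 of 77 (1.30%) and WD repeat genes 1 of 58 (1.72%). Some families were slightly above it in J76 and well above the 14.6% of all genes in 293T. The homeobox clusters had 4 of 40 (10%) in J76 only, against 18 (45.0%) with a 293T-only peak. HOXB8 (5.43), HOXB7 (3.55), HOXA7 (3.50) and HOXD8 (2.97) each had a 293T peak at the ends as well. Collagens had 4 of 44 (9.09%), against 17 (38.6%) with a 293T-only peak, and potassium channels 9 of 96 (9.38%), against 24 (25%).

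In the remaining families, the genes with the highest folds were of varied function. Solute carriers were led by SLC35F4 (9.06), the acetylcholine vesicle transporter gene SLC18A3 (8.10), the glucose transporter gene SLC2A3 (7.08) and SLC45A1 (6.83); SLC18A3 and SLC2A3 also had a 293T peak at an end, with folds of 2.98 and 5.22 in the 293T list. Keratins and keratin associated genes had 10 of 149 (6.71%), with KRTAP16-1 at 9.66, KRT1 at 9.01 and KRT72 at 6.65, and none of the 10 had a 293T peak within 1 kb. G protein coupled receptor genes named GPR or ADGR had 9 of 106 (8.49%), among them ADGRG3 (6.52) and GPR174 (5.84). GPR174 encodes a lymphocyte receptor for a lysophospholipid. Its summit lay 27 bases before the start, and its peak 180535 bp from the nearest 293T peak. Cytochrome P450 genes had 6 of 56 (10.7%), with CYP4F11 at 8.33, CYP2A6 at 5.77 and CYP2A7 at 4.83.

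Dynein and cilium genes had 6 of 64 (9.38%), all at starts, led by CFAP251 with 9.93 at its start and a further peak of 5.56 at its end. Transmembrane TMEM genes had 15 of 233 (6.44%), with TMEM154 at 9.01 and TMEM106A at 8.13. Among interleukin and receptor genes, 6 of 85 (7.06%), IL10 had 5.09 at its end and IL17RE 6.05 beside a 293T fold of 6.94. USP32, a deubiquitinase gene, had 9.07 at a summit 992 bases past its start, close to the limit of the rule.

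Wide peaks were rare among the members, and the widest were not the strongest. The peak at the end of MIB2, a ubiquitin ligase gene, was 1848 bp wide with a fold of 5.61. That at P2RY8, a G protein coupled receptor gene of lymphocytes, was 1711 bp wide with a fold of 6.12 and a summit 56 bases before the start. A peak at a gene with a provisional name was 1775 bp wide with a fold of 5.21. The peak at RFX8 was 1698 bp wide with a fold of 5.42 and that at VWCE 1688 bp with 6.60. None of these 5 genes had a 293T peak within 1 kb of its ends. Several genes carried strong members at separate places, such as ZBTB45 with 7.28 at its end and 6.47 at its start, and TGFB1I1 with 6.74 and 6.50 at its end, where the 293T list had a fold of 9.32.

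The strongest members were of mixed kinds. At the 92 peaks with a fold of at least 8 lay 105 genes. Sorted by hand after their values were seen, 14 were zinc finger genes, 14 leukocyte and T cell genes, 10 neural signalling and developmental genes, 9 germline and reproduction genes, 9 metabolic enzyme genes, 7 interferon or antigen processing genes, and 33 fell in no group. The highest folds were those of MAGEH1 (12.8), the palmitoyl transferase gene ZDHHC15 (12.7), the WNT inhibitor gene APCDD1 (12.4) and the zinc finger genes ZNF737 and ZNF43. Then came PSMA8 and MCCC1 (both 11.8), the calcium pump gene ATP2B3 and SOX1, a factor of neural precursors (both 11.4), SIX6, a factor of eye development (11.2), and GSTM1, a glutathione transferase (11.1). The rest of the 20 highest peaks included TSPYL5 (10.9), FAM111B and TESPA1 (both 10.8), a peak of 10.8 shared by the olfactory receptor genes OR3A2 and OR1R1, NAP1L5 (10.6), the melanocortin receptor gene MC4R (10.6), ESYT3 (10.3) and OCIAD2 (10.2). Of the genes at these 20 peaks, APCDD1 alone had a 293T summit at an end (8.39 in the 293T list), and SOX1 had a 293T peak within 1 kb without its summit there.

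Leukocyte genes outside the lists were found here too. TESPA1, which acts in thymocyte selection, had a fold of 10.8, AOAH, which inactivates bacterial lipopolysaccharide, had 8.89, ZC3H12D 8.69, HCLS1, an actin-binding substrate of leukocyte kinases, 8.33 and CD84, a SLAM family receptor, 8.23. Germline genes outside the lists were MBD3L1 with 10.1, RNF212, a factor of meiotic crossing over, with 9.90, and PNLDC1, which trims piRNAs, with 9.58. Except for PNLDC1, where the 293T list had a fold of 2.77 at an end, these genes had no 293T peak at their ends. The MBD3L1 summit lay 331 bases past its start, and its peak also covered the promoter window of the zinc finger gene ZNF558. ZNF558 is not among the zinc finger members counted above, and the peak cannot be given to MBD3L1 alone. The PNLDC1 summit lay 379 bases before the end of that gene. RNF212 and PNLDC1 each had another gene's end within 2 kb.

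Among metabolic and repair genes, OXCT1 had a fold of 9.90 and the highest −log10 q of all members, 132, at a peak 1442 bp wide. C1GALT1, which extends O-linked sugars, had 8.85. MGMT, which removes alkyl groups from guanine, had 8.09 at a peak 1252 bp wide and 100329 bp from the nearest 293T peak. SLFN11, which acts in cells with stalled replication, had 8.17. PSMB8, an immunoproteasome subunit gene, had 8.26 at a summit 56 bases before its start, and the same peak lay 474 bp from the end of TAP1, a peptide transporter gene, which also had a shared J76 peak of 10.9. DDX60L of the interferon response had 8.45.

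Some members stood in groups along the chromosome. Members whose summits were less than 200 kb from the next formed 93 groups of 3 or more, which held 348 member peaks (25.7%). The same share was not computed for shared or 293T-only peaks at gene ends. It therefore has no background here, and grouping beyond that of the genes themselves was not tested. Within 50 kb of a member there were on average 2.03 other J76-only peaks, against 2.05 around J76-only peaks away from gene ends and 1.28 around shared J76 peaks at gene ends. There were 1.79 293T-only peaks around a member, against 1.88 around J76-only peaks away from gene ends and 2.04 around the shared ones, so the members resembled the other J76-only peaks in this. The largest group had 9 members over 342.8 kb of chromosome 19 (first summit 11798484, last 12141282) at ZNF491, ZNF69, ZNF700, ZNF763, ZNF878 and ZNF20. That stretch held 16 J76-only peaks, 2 shared J76 peaks and 2 293T peaks.

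The GIMAP genes on chromosome 7 made up the next, with 8 members between 150451366 and 150737623. The stretch held 18 J76 peaks, none of them shared, and 1 293T peak. On chromosome 11, 6 members between 118224977 and 118344270 lay at JAML, a leukocyte adhesion gene (5.26), CD3E, CD3D and CD3G. On chromosome 3, 6 members lay at DTX3L and PARP9, partner genes of the interferon response that share a peak of fold 8.30, at PARP15 (5.58), at PARP14 (4.91, 3.79 and 2.84) and at HSPBAP1 (3.95). A group of 6 on chromosome 12 was of another kind: it held SCNN1A, CD27, VAMP1, NCAPD2 and LPAR5 and also 12 shared J76 peaks and 16 293T peaks. PTPRC, which encodes the leukocyte phosphatase CD45, had the most other J76-only peaks within 50 kb, 10, although its own member peaks had folds of only 3.36 and 2.92.

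**Figure D4:**
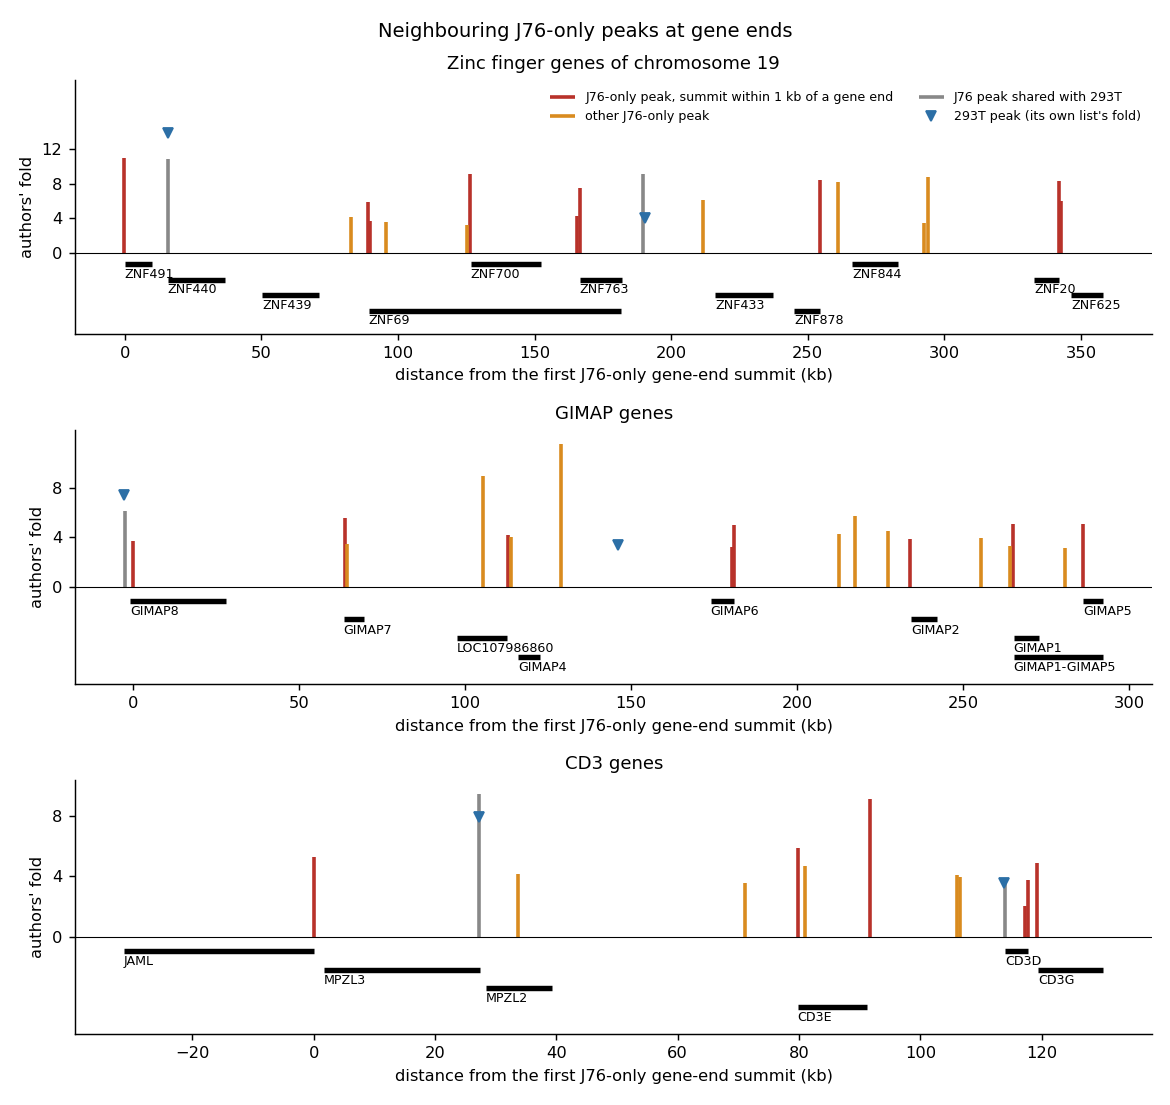
Peaks along 3 groups of neighbouring genes (x, distance in kb from the first J76-only gene-end summit; y, the authors' fold enrichment): J76-only peaks at gene ends (red), other J76-only peaks (orange), J76 peaks shared with 293T (grey) and 293T peaks at their own list's fold (blue triangles), with the genes as black bars. Blue triangles are few in each map: the group itself holds 2 in the zinc finger map, 1 in the GIMAP map and 2 in the CD3 map.

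By chromosome, member genes ran from 3.97% of the genes on chromosome 14 and 4.48% on chromosome X to 9.56% on chromosome 15, 8.73% on 17, 8.64% on 7 and 8.55% on 19. The order in 293T-only genes was another one, with 10.9% on chromosome 15, 11.5% on 17 and 10.4% on 19, against 17.6% on X and 14.6% over all genes. The copy number of the chromosomes in these lines was not measured here.

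The sequence of the promoters that members touched was the measure furthest from the rule. A promoter is the RefSeq window of 300 bases, from 250 before to 50 after its start. It was counted as under a peak if it shared at least 1 base with it, and the whole window was read. Parts of a window can therefore lie outside the peak. At 367 genes the promoter lay under a member peak and under no shared or 293T-only one. In these the ratio of observed to expected CpG had a median of 0.486, against 0.725 in 1035 promoters under a 293T-only peak, 0.869 in 9093 under a shared peak and 0.271 in 4902 under no peak of either line. A ratio under 0.4 was found in 157 of the 367 (42.8%, 37.8 to 47.9), against 18.5% under 293T-only peaks, 2.29% under shared peaks and 68.0% under none. The GC content had a median of 60.0% under members, against 64.0% under 293T-only peaks, 66.7% under shared ones and 52.3% under none. The members thus lay between the promoters open in both lines and those without a peak. Their distribution had 2 modes, with 60 promoters between 0.3 and 0.4 and 54 between 0.7 and 0.8, and fewer between these.

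The strongest members were the richer in CpG. With a fold of at least 8, the median ratio was 0.709 and 11 of 61 promoters (18.0%) were under 0.4. With a fold of 4 to 8 the median was 0.414 and 88 of 179 (49.2%) were under 0.4, and with a lower fold 0.469 and 58 of 127 (45.7%). Of the printed promoters, PSMA8 (0.922) and OXCT1 (0.985) are strong members rich in CpG, whereas PTPN22 (0.249) and ARHGAP15 (0.369) are among the 11 strong members that are poor in it. CD3D (0.252) and IL7R, whose promoter has no CpG, are weaker members poor in CpG.

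**Figure D5:**
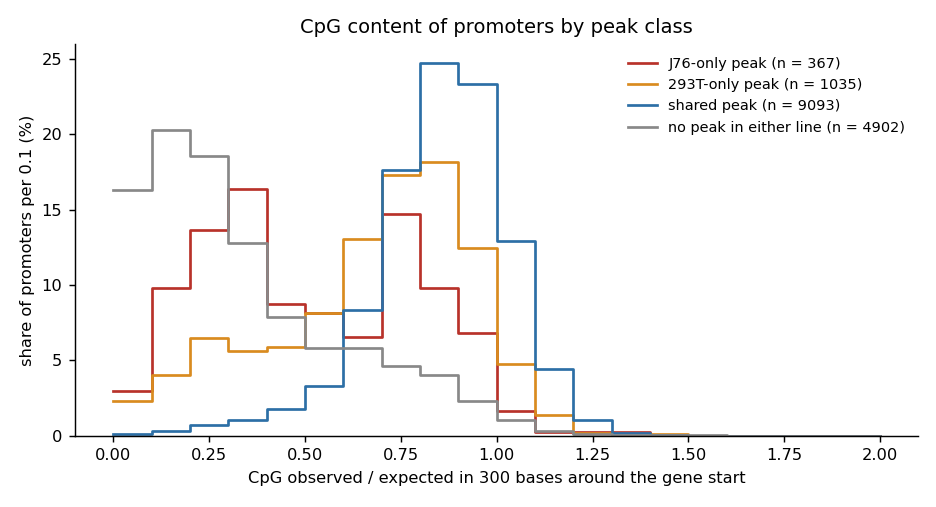
Ratio of observed to expected CpG in the 300 bases around the gene start (x) against the share of promoters in each step of 0.1 (y, percent), for promoters under a J76-only peak (red), a 293T-only peak (orange), a shared peak (blue) and no peak in either line (grey). The red curve has 1 mode at low CpG, near that of promoters with no peak, and 1 at high CpG, near that of shared promoters, with a median of 0.486.

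Of 19 short motifs searched on both strands, the RUNX letters TGTGGTT stood out in the members. They were present in 39 of 367 member promoters (10.6%, 7.87 to 14.2), against 2.13% under 293T-only peaks, 2.55% under shared peaks, 5.06% under no peak and 3.55% of all 15812 promoters. These letters contain none of the other motifs searched. Split by CpG content, the members had the highest share of the 4 classes below a ratio of 0.7. Above it theirs was the lowest, but that rests on 1 match. Among promoters with a ratio under 0.4 the share was 15.3% in members (24 of 157, 10.5 to 21.7). It was 4.19% under 293T-only peaks, 10.1% under shared peaks (6.70 to 14.9) and 6.09% under none. The intervals of members and shared peaks overlap there. From 0.4 to 0.7 the share was 16.3% in members, against 1.42% under 293T-only peaks, 3.29% under shared peaks and 3.44% under none. At 0.7 and over it was 0.806% in members (1 of 124, 0.143 to 4.43). It was 1.78% under 293T-only peaks, 2.23% under shared ones and 1.96% under none, all within the interval of the members.

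Member promoters of the T cell and leukocyte lists had the RUNX letters more often than other member promoters, though most matches lay outside the lists. The letters were found in 13 of the 39 member promoters of the 7 lists (33.3%, 20.6 to 49.0). They were in 26 of the 328 other member promoters (7.93%, 5.47 to 11.4). Of 74 promoters of the same lists that lay under no member peak, 6 had them (8.11%, 3.77 to 16.6). The median CpG ratio of these groups was 0.261, 0.548 and 0.498 in the same order. They thus differed in CpG content too, and its part in the shares was not tested. Besides the 6 printed above, list genes with the letters were TRAF3IP3, CD1A, ARHGAP30, IL9R, GZMA, CXCR3 and CD96. Outside the lists they included GPR171 and GPR174, receptor genes of lymphocytes, BATF, an AP-1 type factor, FCMR, MZB1 and IL10. They also included genes of other kinds, such as KRTAP12-3, OR10T2, WNT1, TRPV5, NLGN4X, UMODL1, ZNF141 and ZNF671. The set was found by searching many motifs in the same promoters, and no test was made. With the letters shortened to TGTGGT, members had them in 18.0% of promoters, against 8.41% under 293T-only peaks, 8.22% under shared peaks and 15.6% under none, so the gap to promoters without a peak was smaller.

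Other motifs set the members apart from the 293T-only promoters less. The ETS letters CCGGAAG were in 8.2% of member promoters, against 7.1% under 293T-only peaks, 21.6% under shared peaks and 3.2% under none. The GC box GGGCGG was in 51.0%, against 61.4% under 293T-only peaks, 76.2% under shared peaks and 25.9% under none. The E box CAGCTG was in 24.0% of member promoters, against 16.9% under 293T-only peaks, 16.2% under shared peaks and 20.4% under none. None of these motifs contains another. The GATA letters AGATAAG were in 2.5% of member promoters and 2.4% of those under 293T-only peaks.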

How the data were processed

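Open chromatin was measured by ATAC-seq in J76 and 293T, with 1 library and 1 peak list per line. Per the submitters' processing notes, the tools were Bowtie2, a read aligner, and MACS2, a peak caller; how duplicates and cut positions were handled is not stated, nor are versions or settings. The narrowPeak lists deposited by the authors give a fold enrichment (a linear ratio), −log10 p-values and q-values, and a score, which in the authors' J76 list equals 10 times the −log10 q, rounded down. They served here to describe and filter peaks of the same list. No label names the genome build; the contig names are those of GRCh38, so positions are printed as GRCh38, counted from 1. Peaks were compared in Python 3.11.15 with pandas 2.3.3 and numpy 2.4.6, and any shared base (at least 1 bp) made a peak shared. Gene ends were read from RefSeq annotation of GRCh38.p14, and strand and promoter sequence from RefSeq promoter windows, which covered 15812 of 19974 genes. Peaks off chromosomes 1 to 22 and X were not used, which removed 901 J76 and 646 293T peaks. The overlap and distance steps were tested on simulated peaks. Gene names followed a rule: the 20 highest peaks by fold, up to 4 members per list and family, the widest peaks, the genes with several member peaks, and the largest groups along the chromosome; other genes were named after their values were seen, and some genes are not reported here. The members, the 23 gene lists, the 34 families and the motifs were chosen with earlier results of these data known. Intervals of shares are 95% Wilson intervals for counting error. Depth is unknown, as the lists hold no read counts. With 1 library per line no test was made. How near-identical gene copies (HBA1 and HBA2, histones, olfactory receptors, the TBC1D3, USP17L and FOXD4L genes) were mapped is not given, so peaks at them are uncertain. Alternatives were other q limits, windows, overlaps and gene sets, and J76-only peaks far from any 293T peak.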

Additional observations from a re-analysis of the deposited data

Results flagged for a closer look

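Chromosome Y and unplaced contigs were outside the comparisons, and 424 J76 peaks there overlapped no 293T peak.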

How the results depend on the processing

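The number of peaks in the set followed the rule. With a J76 −log10 q of at least 10 there were 583 peaks at 608 genes, and with a window of 500 bp there were 833 peaks at 832 genes. With a window of 2.5 kb there were 2716 peaks at 2652 genes, and with a reciprocal overlap of 50% needed for sharing there were 2688 peaks at 2606 genes. Without the genes that have a neighbour's end within 2 kb, 855 genes were left. Genes with no 293T peak within 1 kb of either end, a limit chosen after seeing the data, numbered 705.

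The median fold of the members, 3.83 in the main set, was 4.53 at a J76 −log10 q of at least 5, 5.71 at 10, 4.51 with both lists held to 5, 4.17 each with a reciprocal overlap of 50%, with no 293T peak within 1 kb and with a 500 bp window, and 3.97 at genes with no near neighbour. The median width was 416 bp at a J76 −log10 q of at least 5, 593 bp at 10 and 417.5 bp with both lists held to 5. It was 376 bp with the reciprocal overlap, 354 bp with no 293T peak within 1 kb, 368 bp with the 500 bp window and 320 bp with the 2.5 kb window.

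The share of members at a gene start was 74.2% at a J76 −log10 q of at least 10, 79.9% with the reciprocal overlap, 62.8% with no 293T peak within 1 kb, 74.9% with the 500 bp window and 61.5% with the 2.5 kb window. The share of member genes with a 293T peak at an end was 39.0% at a J76 −log10 q of at least 5, 31.6% at 10 and 37.7% with both lists held to 5. It was 69.5% with the reciprocal overlap, 31.0% with no 293T peak within 1 kb, 20.8% with the 500 bp window, 65.0% with the 2.5 kb window, 36.8% at genes with no near neighbour and 50.6% when any base of the peak counted in place of the summit.

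Zinc finger genes numbered 24 at a J76 −log10 q of at least 10, 75 with the reciprocal overlap, 66 with the 2.5 kb window and 20 without a 293T peak within 1 kb of either end. Of the 15 T cell receptor signalling genes, 8 had no near neighbour. The count stayed within 1.5 times the main count of 15 under the other 10 alternatives. With the 293T list held to the length of the J76 list, 1508 peaks met the rule. The RUNX letters were in 18.0% of member promoters when shortened to TGTGGT, against 15.6% of promoters with no peak and 8.41% of those under a 293T-only peak, a setting chosen after seeing the data. No paired analysis was possible because each line had 1 library. For the same reason no library could be left out. Unknown depth limits every count here, because a weak peak in 293T may have gone uncalled.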
